A study of Mus musculus with 19 samples.

Results

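The 10 genes described here, Pmel, Trpm1, Calcoco2, Aox3, Arhgdib, Accsl, Ak7, Abcb1a, Mylpf and Alpl, were picked from 22756 gene entries. The rule was RNA high in undifferentiated mouse embryonic stem (ES) cells or lines derived from them and low in AICAR-treated cells positive for GFP. Each of the 10 has 1 entry in the tables, and none is joined with a neighbouring gene. The contrasts of AICAR GFP-positive cells with undifferentiated cells and with lines chose these genes, so those values are given as a description with no test. The working name of the set calls the genes absent from AICAR GFP-positive cells, and the data go against that word for 3 of them. Alpl stood at 20.5%, Abcb1a at 14.8% and Mylpf at 7.44% of the undifferentiated level there, and the other 7 stood between 1.93% and 4.84%.

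RNA was sequenced from 19 libraries of Rex1 GFPd2 ES cells, a reporter line in which a short-lived GFP follows Zfp42 (also called Rex1), which naive ES cells express. All AICAR groups and lines descend from cells sorted at day 2 of differentiation as negative for SSEA1 and GFP and then kept with AICAR to day 15. From these cultures the 8 colony lines were grown from picked GFP-positive colonies and the 2 sorted lines from sorted GFP-positive cells, in medium that holds LIF together with a MEK and a GSK3 inhibitor (LIF+2i). The AICAR cells were taken after 15 days and hold 3 GFP-positive libraries, 1 GFP-negative library and 1 unfractionated library. AICAR is a nucleoside that cells turn into an AMP mimic, an activator of the kinase AMPK, and its dose is not in the labels used here. The remaining groups hold 1 library each: undifferentiated cells in LIF+2i, cells after 2 days of differentiation, cells of that day-2 sort, and day-15 cells that grew on from the sort without AICAR. Day-2, day-15 and AICAR cells were in differentiation medium with serum and without LIF+2i. Every library in which the 10 genes were high therefore came from LIF+2i except the day-15 library for Arhgdib, and medium, AICAR and time cannot be told apart in the contrast that chose the genes. All libraries come from a single reporter line, and separate cultures are not stated for the replicates.

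The ground state of mouse ES cells is held by LIF, which acts through STAT3, and by blocking MEK and GSK3, which shields the cells from differentiation signals and stabilises beta-catenin. Naive transcription factors such as Esrrb, Klf4 and Nanog keep this state. Among the 10 genes only Alpl has a long history as a stem cell marker, since the enzyme it encodes gives ES cell colonies their alkaline phosphatase stain. Most of the others are better known from differentiated tissues: pigment cells, liver, blood, motile cilia, the blood-brain barrier and fast muscle.

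Reads in genes ranged from 5771671 to 8262357 in 17 libraries and were 12751260 and 14233421 in AICAR GFP-positive replicates 1 and 2. Those 2 libraries form a second sequencing project, and AICAR GFP-positive replicate 3 belongs to the same project as all other groups. Levels are given as CPM, the reads of a gene scaled to the same total of reads in genes for each library. Zfp42 stood between 463 and 677 CPM in AICAR GFP-positive cells, against 435 CPM in undifferentiated cells, which matches the reporter label. Fewer cells that express a gene and less RNA per cell cannot be told apart in these bulk libraries.

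Pmel encodes the protein that forms the fibrils on which melanin is laid down in pigment cells. It stood at 0.706, 1.19 and 1.69 CPM in AICAR GFP-positive replicates 1 to 3. The colony lines lay between 45.0 and 71.4 CPM with a median of 57.8, the sorted lines at 53.1 and 57.5 CPM, and undifferentiated cells at 59.9 CPM. No AICAR library came near the lines: GFP-negative cells had 2.25 CPM and unfractionated cells 3.35 CPM. Across the differentiation series Pmel was at 4.18 CPM at day 2, 2.10 CPM in the day-2 sorted cells and 3.24 CPM at day 15 without AICAR.

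Trpm1 encodes a cation channel of pigment cells and of retinal bipolar cells. It stood at 3.22, 1.62 and 2.90 CPM in the AICAR GFP-positive libraries. Colony lines ranged from 45.2 to 65.3 CPM with a median of 52.9, sorted lines had 50.7 and 52.3 CPM, and undifferentiated cells had 63.4 CPM. In all other groups it rested on 5 reads or fewer: 0.261 CPM at day 2, 0.150 CPM in the day-2 sorted cells, 0.389 CPM at day 15, 0.693 CPM in AICAR GFP-negative and 0.797 CPM in AICAR unfractionated cells. Trpm1 was thus low everywhere outside LIF+2i, and the 3 GFP-positive libraries were the highest of those low values.

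Pmel and Trpm1 are textbook targets of MITF in pigment cells, so the promoter windows were searched for the letters of its binding site. RefSeq windows of 300 bases (250 before and 50 after a start, GRCm38.p6) were at hand for 8 of the 10 genes, all but Pmel and Calcoco2, and came to 14 windows. The deposited counts use mm9, and the windows are used only for their sequence. The letters CATGTG, the core of the M-box and called M-box here, were in 4 windows of 3 genes and in 14.2% of all 32851 windows. They were read on both strands, and the letters that flank this core were not searched. The E-box CACGTG was in 1 window of the set and in 7.15% of all. The windows of Trpm1, Arhgdib and Abcb1a that hold an M-box are shown because they carry this match, 5′ to 3′ on the strand of the gene. Capitals mark the M-box or its reverse complement in all of them, the E-box also in the second Trpm1 window, and a reverse complement of the Klf letters GGGNGTG also in the Arhgdib window. In the Arhgdib window the last run of capitals is an M-box match on each strand, which overlap. The match of letters is a description and does not show binding.
Trpm1 window 1, chr7:64153585-64153884, plus strand: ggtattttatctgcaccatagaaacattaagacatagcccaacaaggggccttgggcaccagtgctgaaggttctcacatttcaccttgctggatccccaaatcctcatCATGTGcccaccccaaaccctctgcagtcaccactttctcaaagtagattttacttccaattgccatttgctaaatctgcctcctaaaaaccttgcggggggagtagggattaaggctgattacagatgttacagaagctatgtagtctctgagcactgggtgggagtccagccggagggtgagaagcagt
Trpm1 window 2, chr7:64185209-64185508, plus strand: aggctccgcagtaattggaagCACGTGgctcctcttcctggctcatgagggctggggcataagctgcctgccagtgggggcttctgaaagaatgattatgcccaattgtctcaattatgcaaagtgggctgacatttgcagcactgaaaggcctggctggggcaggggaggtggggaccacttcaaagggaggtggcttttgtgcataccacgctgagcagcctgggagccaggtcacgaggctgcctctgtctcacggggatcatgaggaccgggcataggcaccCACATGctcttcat
Arhgdib window 3, chr6:136941850-136942149, minus strand: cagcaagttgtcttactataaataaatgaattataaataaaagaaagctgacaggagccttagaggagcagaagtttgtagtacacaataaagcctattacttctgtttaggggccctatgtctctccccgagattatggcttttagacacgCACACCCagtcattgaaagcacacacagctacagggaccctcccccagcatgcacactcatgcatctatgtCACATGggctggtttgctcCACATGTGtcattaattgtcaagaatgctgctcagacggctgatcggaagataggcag
Abcb1a, chr5:8566841-8567140, plus strand: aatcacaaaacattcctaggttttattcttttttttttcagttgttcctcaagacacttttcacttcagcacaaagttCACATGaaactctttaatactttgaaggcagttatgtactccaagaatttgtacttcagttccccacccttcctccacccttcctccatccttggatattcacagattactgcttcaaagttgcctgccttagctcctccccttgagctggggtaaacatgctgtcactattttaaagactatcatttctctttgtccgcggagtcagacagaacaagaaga

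The MITF family was measured in the same libraries. Tfeb, a family member that drives lysosome and autophagy genes, stood at 10.4 to 15.7 CPM in AICAR GFP-positive cells, against 56.0 to 70.1 CPM in the lines and 57.7 CPM in undifferentiated cells. Tfe3, another member, stood at 43.4 to 64.9 CPM in AICAR GFP-positive cells, within or above the 37.1 to 48.5 CPM of the lines and the 42.3 CPM of undifferentiated cells. Mitf itself was at 3.61 to 5.27 CPM in AICAR GFP-positive cells, 10.2 to 17.2 CPM in lines and 8.07 CPM in undifferentiated cells. Flcn, Fnip1 and Fnip2 encode the folliculin complex, which holds TFE3 in the cytoplasm. Flcn stood at 85.2 to 119 CPM in AICAR GFP-positive cells, against 156 CPM in AICAR GFP-negative cells, 74.1 to 90.6 CPM in lines and 70.5 CPM in undifferentiated cells. Fnip1 (64.1 to 90.4 CPM) and Fnip2 (57.7 to 97.8 CPM) in AICAR GFP-positive cells likewise overlapped the lines, at 47.7 to 72.1 CPM and 47.2 to 77.7 CPM.

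Alpl encodes tissue-nonspecific alkaline phosphatase, a surface enzyme of ES cells and bone. It was the most even of the 10 genes, at 74.0, 75.9 and 77.1 CPM in the AICAR GFP-positive libraries. Colony lines lay between 294 and 320 CPM with a median of 312, sorted lines at 303 and 314 CPM, and undifferentiated cells at 370 CPM. The GFP-negative library had 31.0 CPM and the unfractionated AICAR library 39.8 CPM, so the GFP-positive libraries stood above both and far below undifferentiated cells. The differentiation series ran through 57.3 CPM at day 2, 54.9 CPM in the day-2 sorted cells and 8.95 CPM at day 15.

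Abcb1a encodes P-glycoprotein, the drug efflux pump of the blood-brain barrier. It stood at 9.25, 11.0 and 11.7 CPM in AICAR GFP-positive cells, against 60.5 to 75.3 CPM in colony lines (median 70.5), 64.6 and 63.2 CPM in sorted lines and 71.8 CPM in undifferentiated cells. It left the undifferentiated level more slowly than the other genes: 31.2 CPM remained at day 2 and 36.9 CPM in the day-2 sorted cells, against 5.06 CPM at day 15. AICAR GFP-negative cells had 6.06 CPM and unfractionated cells 12.4 CPM. Of the 50-base stretches in the Abcb1a transcript, 15.5% also occur in the transcript of its close copy Abcb1b, so uniquely mapped reads sample only part of the gene.

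Aox3 encodes an aldehyde oxidase, an enzyme that oxidises aldehydes and N-heterocycles in mouse liver. It had 0, 7 and 3 reads in the 3 AICAR GFP-positive libraries, which is 0, 0.492 and 0.363 CPM, and 3 reads in the first of them would be 0.235 CPM. Colony lines had 20.4 to 46.0 CPM with a median of 23.6, and sorted lines 17.9 and 21.8 CPM. Undifferentiated cells had 13.9 CPM, below every line. Day-15 cells without AICAR held 2.46 CPM, more than the 0.319 CPM of AICAR unfractionated and the 0.173 CPM of AICAR GFP-negative cells, and day 2 and the day-2 sort had 1 and 2 reads.

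Accsl encodes a relative of the plant enzyme that makes the precursor of ethylene. It stood at 0.549, 0.843 and 1.21 CPM in AICAR GFP-positive cells, against 26.2 to 47.3 CPM in colony lines (median 32.8), 29.8 and 33.3 CPM in sorted lines and 42.1 CPM in undifferentiated cells. Its neighbour on chromosome 2, Accs, stood at 22.6% of the undifferentiated level in AICAR GFP-positive cells, from a low undifferentiated level of 4.26 CPM. Accsl was at 2.87 CPM at day 2, 2.25 CPM in the day-2 sorted cells, 0.389 CPM at day 15, 1.04 CPM in AICAR GFP-negative and 0.797 CPM in AICAR unfractionated cells.

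Ak7 encodes an adenylate kinase of motile cilia, an enzyme that balances AMP, ADP and ATP. It stood at 1.25, 1.41 and 1.82 CPM in AICAR GFP-positive cells. Colony lines had 31.1 to 48.2 CPM with a median of 41.9, sorted lines 44.3 and 44.8 CPM, and undifferentiated cells 30.8 CPM. AICAR GFP-negative cells had no read, for which 3 reads would be 0.520 CPM. Values elsewhere were alike and low, at 0.784 CPM at day 2, 1.05 CPM in the day-2 sorted cells, 1.30 CPM at day 15 and 1.27 CPM in AICAR unfractionated cells. The Ak7 window is shown because it holds the Klf letters GGGNGTG 3 times, each as the reverse complement in capitals; these letters were in 4 windows of 3 of the genes and in 29.2% of all windows.
Ak7, chr12:105705732-105706031, plus strand: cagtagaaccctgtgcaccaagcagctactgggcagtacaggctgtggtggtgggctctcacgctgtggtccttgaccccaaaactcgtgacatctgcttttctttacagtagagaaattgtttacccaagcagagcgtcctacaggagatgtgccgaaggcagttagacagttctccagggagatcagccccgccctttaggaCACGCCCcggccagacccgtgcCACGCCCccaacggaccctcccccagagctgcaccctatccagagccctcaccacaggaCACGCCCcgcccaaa
The Esrrb letters TCAAGGTCA and the STAT letters TTCNNNGAA, read on both strands, were in none of the 14 windows and in 0.423% and 8.3% of all windows. The TCF letters CTTTGAT were in 1 window, of Accsl, and in 3.73% of all.

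Mylpf encodes the regulatory light chain of fast skeletal muscle myosin. It stood at 18.9, 26.1 and 21.8 CPM in AICAR GFP-positive cells, against 203 to 297 CPM in colony lines (median 267), 296 and 308 CPM in sorted lines and 299 CPM in undifferentiated cells. AICAR GFP-negative cells had 6.24 CPM and unfractionated cells 16.6 CPM. The differentiation series ran through 10.1 CPM at day 2, 5.55 CPM in the day-2 sorted cells and 22.3 CPM at day 15, where the value lay inside the range of the GFP-positive libraries. Per length, Mylpf was the most abundant of the 10 genes in undifferentiated cells at 467 RPKM, followed by Alpl at 211 RPKM and Calcoco2 at 76.5 RPKM, and Aox3 was the least abundant at 3.49 RPKM.

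Arhgdib encodes a cytosolic GDP-dissociation inhibitor that is abundant in blood cells and keeps small GTPases inactive. It had 1, 3 and 10 reads in AICAR GFP-positive replicates 1 to 3, or 0.0784, 0.211 and 1.21 CPM. Colony lines had 22.8 to 41.4 CPM with a median of 33.1, sorted lines 33.9 and 29.2 CPM, and undifferentiated cells 19.5 CPM, below every line. Arhgdib was the only one of the 10 genes that was as high in day-15 cells without AICAR, at 39.4 CPM, as in the lines. It was at 7.05 CPM at day 2, 5.10 CPM in the day-2 sorted cells, 6.69 CPM in AICAR unfractionated and 0.866 CPM in AICAR GFP-negative cells.

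Calcoco2 encodes NDP52, known in human cells as a receptor that brings bacteria and damaged mitochondria to autophagosomes. It stood at 1.10, 2.46 and 0.847 CPM in AICAR GFP-positive cells, against 106 and 111 CPM in sorted lines and 76.2 CPM in undifferentiated cells. Colony lines spread from 34.1 to 130 CPM with a median of 81.3, the widest spread of the 10 genes at 3.82-fold. AICAR GFP-negative cells had no read, unfractionated AICAR cells had 4.46 CPM and day-15 cells 0.259 CPM from 2 reads. Day 2 and the day-2 sort had 3.53 and 2.85 CPM.

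**Figure D1:**
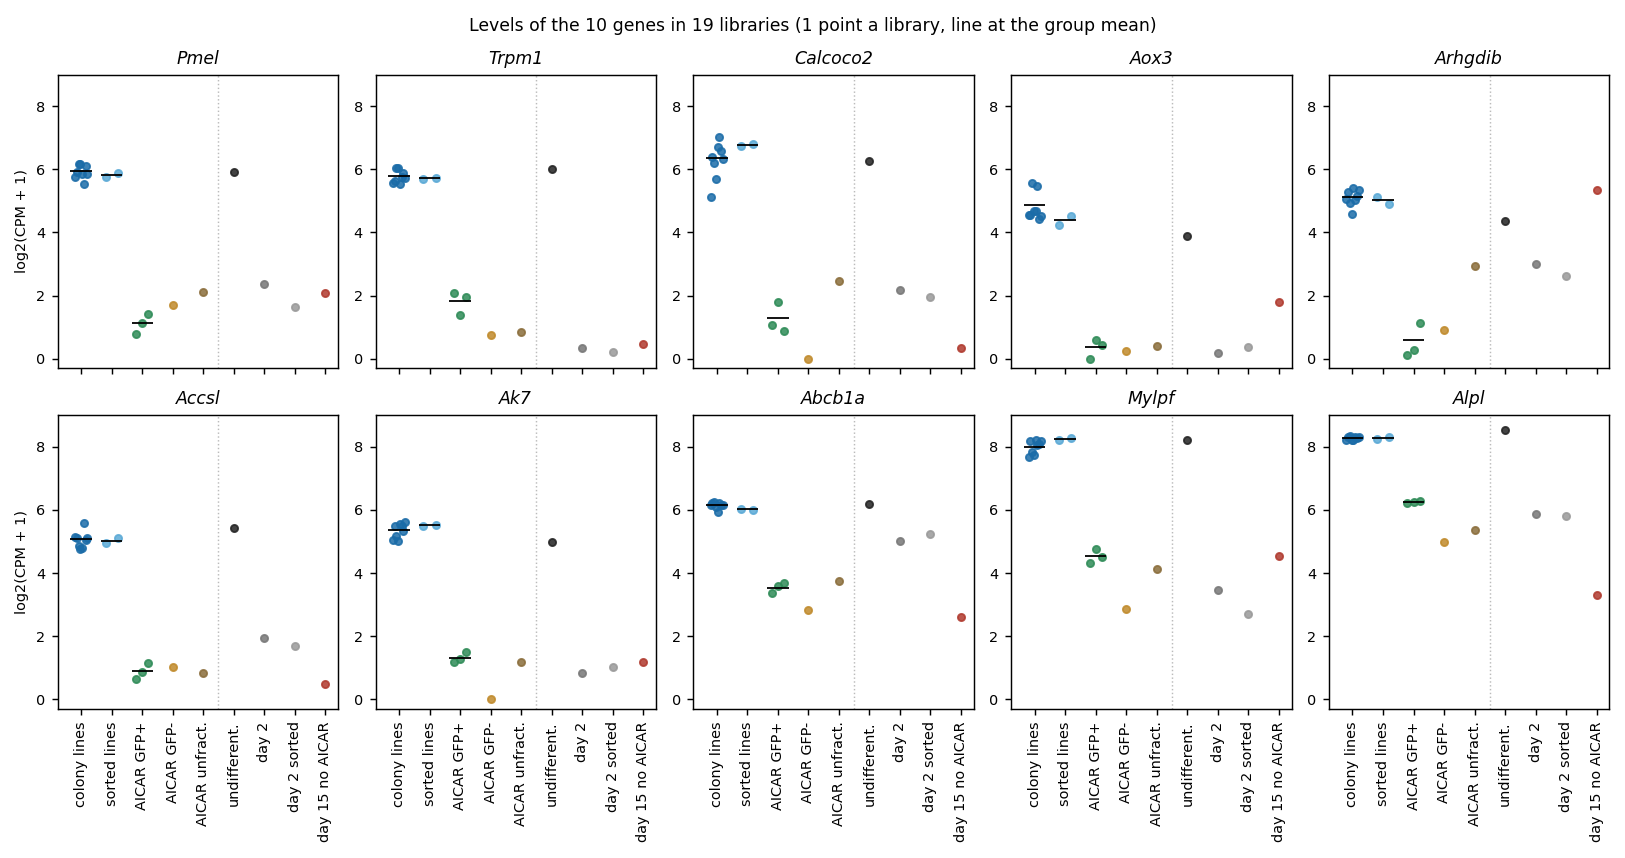
Levels of the 10 genes as log2(CPM + 1), 1 point for each of 19 libraries, with AICAR-derived groups left of the dotted line and the cells that never saw AICAR right of it; horizontal lines are group means. The 3 AICAR GFP-positive libraries lie below both kinds of line and below undifferentiated cells in every panel, by construction of the set, and the day-15 library reaches the lines only for Arhgdib.

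Ordered by mean CPM, the lines and undifferentiated cells took the highest 3 places for 9 of the 10 genes, and the day-15 library took the first place for Arhgdib. The order among those 3 differed between genes, and the undifferentiated library lay inside the range of the 8 colony lines for 5 genes. It lay below all colony lines for Aox3, Arhgdib and Ak7 and above all of them for Mylpf and Alpl. For Ak7 (30.8 CPM, lowest line 31.1 CPM) and Mylpf (299 CPM, highest line 297 CPM) the gap was small. How many of all genes lie outside that range was not counted, so nothing is read from these counts. The fourth place went to AICAR GFP-positive cells for Trpm1, Ak7 and Alpl, to a day-2 group for Pmel, Accsl and Abcb1a, to AICAR unfractionated cells for Calcoco2 and to day-15 cells for Aox3 and Mylpf. In the low groups, neighbours in the order often overlapped the spread of the GFP-positive libraries: this held for Aox3, Arhgdib, Accsl, Ak7 and Mylpf.

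Most genes of the naive state stood closer to the undifferentiated level than the 10 genes, which were chosen as low in this contrast. Set beside undifferentiated cells, the mean of AICAR GFP-positive cells stood at a median of 3.31% for the 10 genes (1.93% to 20.5%) and at a median of 68.8% for 19 naive pluripotency genes (22.3% to 180%). Of the 19 naive genes, 3 stood under 50%, namely Dppa3, Tcl1 and Nanog, and 6 stood above 100%. General pluripotency genes had a median of 126% over 10 genes. Among all genes with at least 100 reads in a library, 3.74% were more than 2-fold lower in AICAR GFP-positive cells than in undifferentiated cells. The 10 genes were chosen by this contrast, so their distance from the naive genes is set by the choice. The 9 of 9 with enough reads that passed it carry no weight either. Summed, the 10 genes stood at 109 to 121 CPM in AICAR GFP-positive cells, against 825 to 1051 CPM in lines and 1047 CPM in undifferentiated cells.

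**Figure D2:**
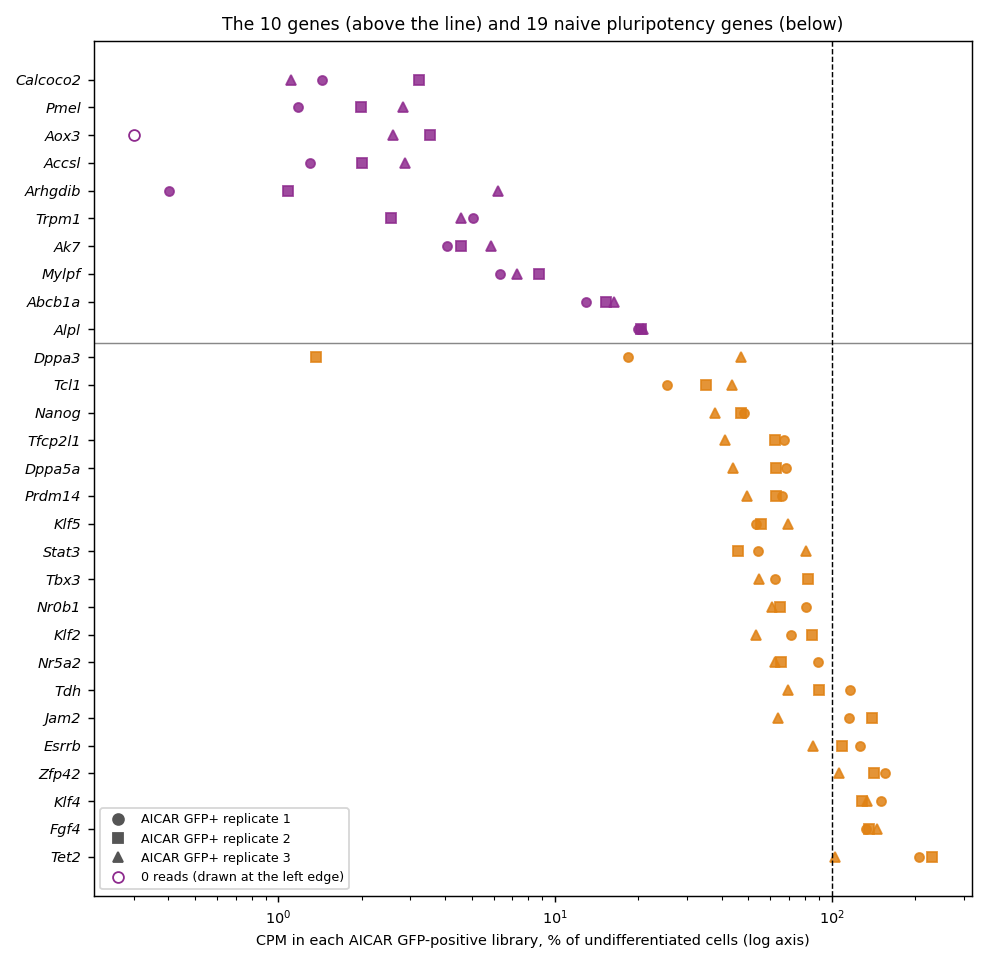
Level in each AICAR GFP-positive library as a percentage of undifferentiated cells (log axis), with 3 symbols a gene for the 3 libraries, for the 10 genes above the line and 19 naive pluripotency genes below it. The open circle marks Aox3 with 0 reads in replicate 1. The 10 genes lie at or left of Alpl, whose mean is 20.5%. All naive genes other than Dppa3, which rests on few reads, lie right of them in each library. The 10 genes were chosen by this contrast, so their place carries no weight.

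Genes related to the 10 by family or only by role, called relatives here, varied around a median near the undifferentiated level. Those grouped by role or by a wider family include Sqstm1, Nbr1, Optn, Abcc1 and Abcg2. Among relatives with at least 10 CPM in undifferentiated cells, which were 15 genes, AICAR GFP-positive cells stood at a median of 103% of the undifferentiated level (30.3% to 183%). Under 50% were 3 of the 15: Abcb1b at 30.3%, the channel Trpm4 at 34.3% and the mitochondrial adenylate kinase Ak4. Among all genes with at least 100 reads in a library, a minimum unlike that for the relatives, 3.74% were more than 2-fold lower. Relatives under 10 CPM in undifferentiated cells are not in the count of 15. Ak4 had 8.31 to 27.7 CPM in AICAR GFP-positive cells, against 49.5 CPM in undifferentiated cells. Arhgdia, the ubiquitous relative of Arhgdib, stood at 228 to 255 CPM in AICAR GFP-positive cells, against 208 to 256 CPM in lines and 235 CPM in undifferentiated cells. The autophagy receptors Calcoco1, Tax1bp1 and Nbr1 stood at 132%, 137% and 143% of the undifferentiated level, Sqstm1 at 87.3% and Optn at 73.9%. The non-muscle light chains Myl12a and Myl12b stood at 92.6% and 118%. Trpm7, a ubiquitous channel, stood at 122%, the adenylate kinase Ak1 at 106%, and the transporter Abcc1 at 183%. Abcg2, another transporter, averaged 72.9 CPM in AICAR GFP-positive cells, against 85.7 CPM in undifferentiated cells. Relatives that reached 10 CPM only elsewhere were Myl9, Trpm5 and Ak5, highest at day 15 with 261, 15.6 and 19.7 CPM, Ak3, Tap1 and Tap2, also highest at day 15 with 32.4, 38.2 and 17.4 CPM, Trpm6, highest in AICAR GFP-negative cells with 21.7 CPM, and Arhgdig, highest at day 2 with 20.8 CPM. Ak3 and Ak5 share their table entries with another gene.

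**Figure D3:**
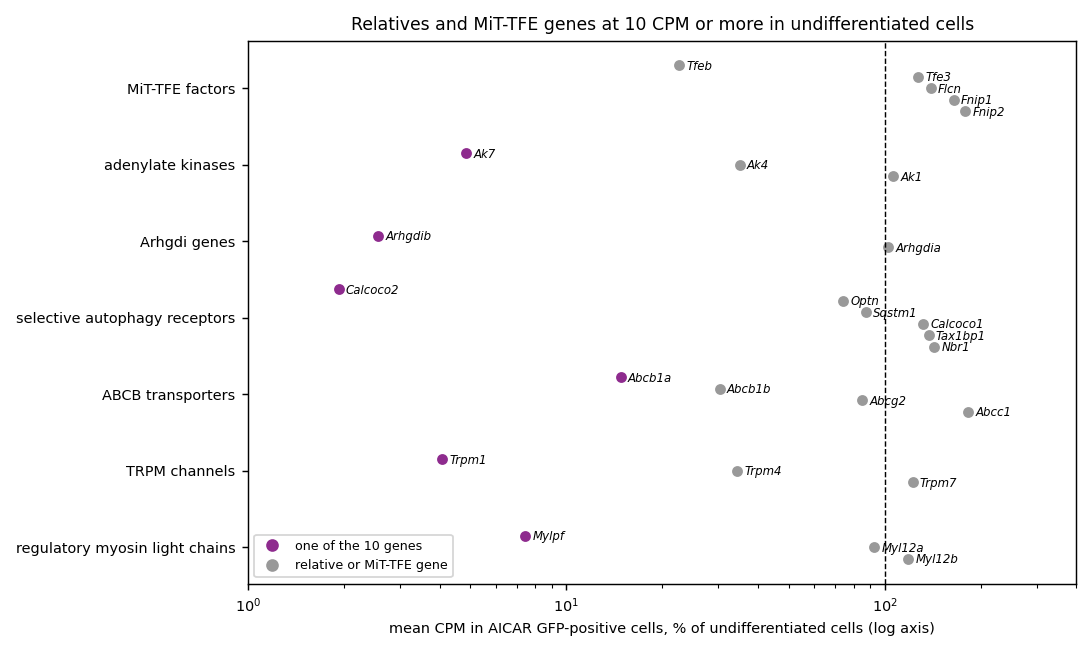
Mean level in AICAR GFP-positive cells as a percentage of undifferentiated cells (log axis) for 6 of the 10 genes (purple). Relatives by family or role with at least 10 CPM in undifferentiated cells are grey. The MiT-TFE factors, which are no relatives of the 10 genes, are shown beside them. Each purple gene lies left of all its relatives, but the purple genes were chosen by this contrast, so their place carries no weight. The relatives farthest to the left are Abcb1b, Trpm4 and Ak4.

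Nearly all of the 10 genes were already low after 2 days of differentiation. With a call of more than 2-fold between single libraries of at least 100 reads, 9 of 9 genes were lower at day 2 than in undifferentiated cells, against 7.73% of 8174 genes. The median log2 ratio, with 1 CPM added, was -3.56 for the 9 genes and 0.05 for all genes. In the day-2 sorted cells 8 of 9 were lower, against 8.02% of 7992 genes, with a median of -3.96 against 0.04 for all genes. Abcb1a was the exception there at 1.95-fold lower (95% counting interval 1.67 to 2.28). Aox3, with 95 reads in undifferentiated cells, missed the read minimum. Trpm1 had 2 reads at day 2 and was 243-fold lower than in undifferentiated cells (95% counting interval 66.8 to 2011). Mylpf was 29.7-fold lower at day 2 (95% counting interval 23.7 to 37.9), Alpl 6.45-fold (5.82 to 7.15) and Arhgdib 2.77-fold (2.00 to 3.87). The undifferentiated library was also used to choose the genes, so its high values are not independent of the choice.

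At day 15 without AICAR, 8 of 9 genes were more than 2-fold lower than in undifferentiated cells, against 19.2% of 9790 genes, and Arhgdib alone was more than 2-fold higher, against 32.1%. Arhgdib was 2.02-fold higher (95% counting interval 1.64 to 2.49), close to the 2-fold limit. Alpl was 41.3-fold lower (95% counting interval 32.5 to 53.3) and Abcb1a 14.2-fold lower (10.2 to 20.2), and both stood lower than at day 2. The median log2 ratio was -3.84 for the 9 genes and 0.20 for all genes. The undifferentiated library also took part in choosing the genes, so the counts and the median are given without a reading. Single libraries have no replicate check.

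AICAR GFP-positive cells were next compared with day-15 cells that never saw AICAR. The genes were chosen as low in the same GFP-positive libraries, which bears on every comparison with them, so the counts are given without a reading. In edgeR's quasi-likelihood test with Benjamini-Hochberg adjustment over 14857 genes, Alpl and Abcb1a were higher (2 of 10 genes, against 23.1% of all genes) and Arhgdib was lower (1 of 10, against 23.2%). Alpl averaged 75.7 ± 1.54 CPM in AICAR GFP-positive cells (SD, n = 3) and 8.95 CPM at day 15 (n = 1), a log2 fold change of 3.16 ± 0.19 (SE, edgeR adjusted p = 0.00202). Abcb1a averaged 10.7 ± 1.27 CPM in AICAR GFP-positive cells and 5.06 CPM at day 15, a log2 fold change of 1.15 ± 0.35 (edgeR adjusted p = 0.05, just under the threshold). The Abcb1a call was lost with DESeq2 (adjusted p = 0.0618), with DESeq2 size factors, without the filter on low counts, and without GFP-positive replicate 1 (adjusted p = 0.105) or replicate 2 (adjusted p = 0.182). Arhgdib stood at 0.0784 to 1.21 CPM in AICAR GFP-positive cells and 39.4 CPM at day 15, with a log2 fold change of -6.40 ± 0.94 (edgeR adjusted p = 0.00786).

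The other 7 genes did not pass in this test. Trpm1 (log2 fold change 2.76 ± 0.87, edgeR adjusted p = 0.0532) and Calcoco2 (2.56 ± 1.20) had every GFP-positive library above day 15, on few reads. Aox3 (-2.99 ± 1.27) and Pmel (-1.37 ± 0.68) had every GFP-positive library below it. Without GFP-positive replicate 3, Trpm1 and Aox3 passed, with edgeR adjusted p of 0.0434 and 0.0489. Accsl had a log2 fold change of 1.18 ± 1.02, Ak7 of 0.27 ± 0.67 and Mylpf of 0.08 ± 0.29, and the last had its day-15 value of 22.3 CPM among its GFP-positive values. Over the 10 genes the median log2 fold change was 0.71, against -0.03 for all genes tested. Within the first sequencing project, GFP-positive replicate 3 alone gave log2 ratios to day 15 of 3.11 for Alpl, 1.22 for Abcb1a and -5.03 for Arhgdib.

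Markers of other cells differed between these groups. Summed, 10 mesenchyme markers stood at 205 to 473 CPM in AICAR GFP-positive cells and 40607 CPM at day 15, led there by Col1a1. In edgeR's test 9 of the 10 were lower, against 23.2% of all genes. Of 12 fast muscle markers 9 were lower and 1 was higher, against 23.2% and 23.1% of all genes. Their sums were 30.7 to 34.4 CPM in AICAR GFP-positive cells and 360 CPM at day 15. The summed level of 10 endoderm markers was 135, 133 and 969 CPM in GFP-positive replicates 1 to 3, against 401 CPM at day 15, and replicate 3 thus stood apart. Of the 10 endoderm markers only 1 was lower and 0 were higher. Among other lists, pigment had 3 of 5 tested markers lower and osteoblast 2 of 7. Blood and endothelium had 2 of 8 higher and 1 lower. The part of these markers in the differences of the 10 genes was not tested. Without replicate 3 the log2 fold changes were 3.14 for Alpl, 1.08 for Abcb1a and -7.88 for Arhgdib, and all of them passed in edgeR.

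AICAR GFP-positive cells were also set beside AICAR GFP-negative cells, and whether these libraries share a culture is not stated. For 6 of the 10 genes all 3 GFP-positive libraries lay above the GFP-negative library, and for Pmel all of them lay below it. How many of all genes separate in this way was not counted, so nothing is read from these counts. For Pmel the difference rests on few reads, with 14 in GFP-positive replicate 3 and 13 in GFP-negative cells. In edgeR's test no gene of 13821 passed in either direction, so 0 of 9 genes were called, against 0.0% of all genes higher and 0.0% lower. At an unadjusted p under 0.05 there were 3022 genes, 21.9% of those tested, and 4 of these 9. DESeq2 called 1204 genes, 2 of the 9 among them, and the share of all genes this makes was not computed. Alpl stood at 74.0 to 77.1 CPM in GFP-positive cells, against 31.0 CPM in GFP-negative cells, with a log2 fold change of 1.27 ± 0.16 (edgeR adjusted p = 0.138). The value for Mylpf, at 18.9 to 26.1 CPM in GFP-positive cells against 6.24 CPM in GFP-negative cells, was 1.82 ± 0.31 (edgeR adjusted p = 0.138). DESeq2 gave log2 fold changes of 1.28 for Alpl (adjusted p = 1.33e-05) and 1.82 for Mylpf (adjusted p = 0.00162). This comparison and the one with day 15 share the GFP-positive libraries.

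Trpm1 had a log2 fold change of 1.86 ± 0.80 over GFP-negative cells and Abcb1a of 0.80 ± 0.33. Pmel had -0.94 ± 0.73, Arhgdib -0.93 ± 1.59 and Accsl -0.30 ± 0.86. Calcoco2 and Ak7 had no read in GFP-negative cells. Against the 3-read floor of that library, 0.520 CPM, they were at least 2.82-fold and at least 2.87-fold higher in GFP-positive cells. The bound for Calcoco2 was 1.87-fold without GFP-positive replicate 2. Aox3 had too few reads to be tested. Without GFP-positive replicate 3, whose endoderm markers summed to 969 CPM beside 943 CPM in GFP-negative cells, edgeR called 3953 genes, with Calcoco2, Mylpf and Alpl higher. The share of tested genes called in that run was not computed, so the named genes are given without a reading. Within the first sequencing project, replicate 3 over the GFP-negative library gave a log2 ratio of 1.31 for Alpl, and Mylpf stood there at 21.8 CPM, against 6.24 CPM in the GFP-negative library.

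**Figure D4:**
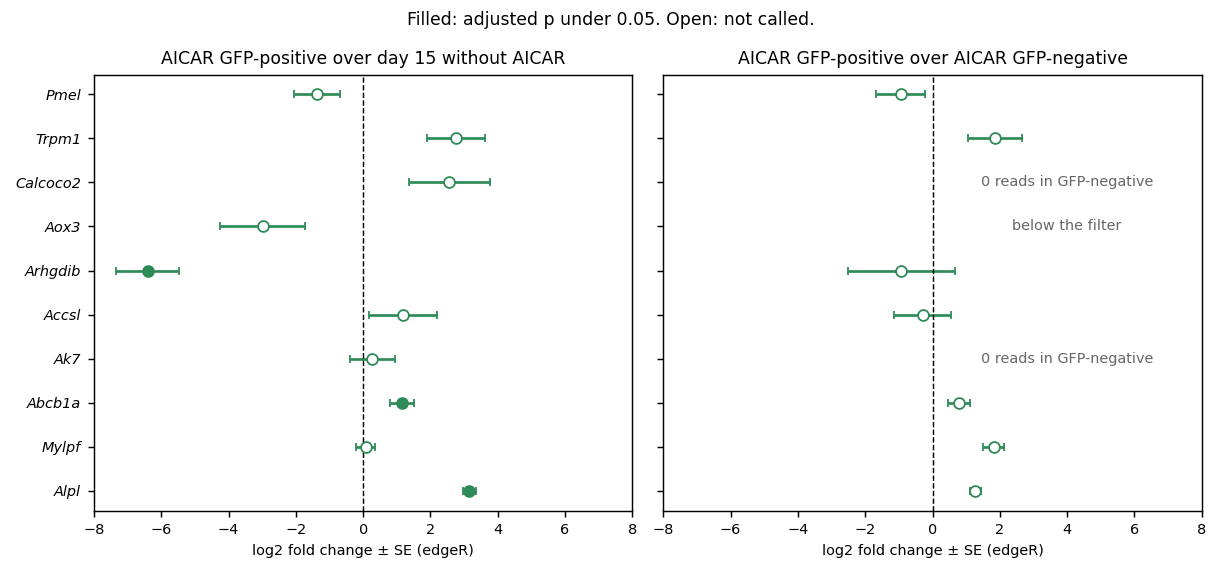
Log2 fold change with its standard error (edgeR) of AICAR GFP-positive cells over day-15 cells without AICAR (left) and over AICAR GFP-negative cells (right) for each of the 10 genes. Filled points had an adjusted p under 0.05: Alpl and Abcb1a to the right and Arhgdib to the left of 0 in the left panel, and none in the right panel.

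Set beside day-15 cells, the unfractionated AICAR library had Alpl 4.45-fold higher (95% counting interval 3.40 to 5.90), 1 of the 3 genes with enough reads, against 11.1% of 9607 genes. Arhgdib was 5.89-fold lower there (4.26 to 8.34), again 1 of 3, against 14.6%. In the AICAR GFP-negative library Alpl was 3.47-fold higher than at day 15 (2.61 to 4.65), 1 of 3 genes against 11.3% of 9493. Arhgdib was 45.5-fold lower (19.3 to 141) and Mylpf 3.58-fold lower (2.48 to 5.27), 2 of 3 against 19.5%. Arhgdib thus stood below and Alpl above day 15 in each AICAR library, whatever its GFP label. The comparisons of AICAR cells with day 15 share the single day-15 library.

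Lines and undifferentiated cells, whose high levels both took part in choosing the genes, were set beside each other, and nothing about their likeness is read from this. Colony lines held 77.8% (Accsl) to 203% (Aox3) of that level on average. No gene of the 10 passed in edgeR's test of colony lines against the undifferentiated library over 12314 genes, in which 1 gene was higher (0.00812%) and 3 were lower (0.0244%). At an unadjusted p under 0.05 there were 2385 genes, 19.4% of those tested, and 3 of the 10. DESeq2 called 387 genes and none of the 10. Aox3 averaged 28.2 ± 10.2 CPM in colony lines (SD, n = 8) and 13.9 CPM in undifferentiated cells, a log2 fold change of 1.00 ± 0.44 (SE, edgeR adjusted p = 0.244) with 8 of 8 lines above. Arhgdib averaged 33.7 ± 6.13 CPM in colony lines and 19.5 CPM in undifferentiated cells (0.78 ± 0.27, edgeR adjusted p = 0.178), again with 8 of 8 above. Alpl averaged 309 ± 11.0 CPM in colony lines and 370 CPM in undifferentiated cells (-0.27 ± 0.08, edgeR adjusted p = 0.159), with 8 of 8 below.

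No difference was detected between lines from picked colonies and from sorted cells. In edgeR's test of colony lines against sorted lines over 11870 genes none passed (0.0% higher, 0.0% lower), 0 of the 10 among them. An unadjusted p under 0.05 was held by 1092 genes, 9.2% of those tested, and by none of the 10. DESeq2 called none either. The largest log2 differences, colony over sorted lines, were 0.48 ± 0.30 for Aox3 and -0.45 ± 0.32 for Calcoco2. For Mylpf, 7 of 8 colony lines lay below both sorted lines, at 256 ± 37.0 CPM in colony lines and 302 ± 8.55 CPM in sorted lines (-0.25 ± 0.13, edgeR adjusted p = 0.565).

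Between the 8 colony lines, Alpl and Abcb1a were the most even genes, with a highest-to-lowest ratio of 1.09 and 1.24. Calcoco2 varied 3.82-fold and Aox3 2.25-fold. Lines 1, 5 and 4 held the lowest 3 values of Calcoco2 (34.1, 50.3 and 71.9 CPM), of Mylpf (203, 211 and 229 CPM) and of Ak7 (31.8, 31.1 and 34.9 CPM). Lines 4 and 7 stood apart in Aox3, at 46.0 and 43.3 CPM against 20.4 to 24.7 CPM in the other 6 lines. Line 7 had the highest Calcoco2 at 130 CPM and the lowest Pmel at 45.0 CPM. These are values of single libraries, and no line has a second library to show how far they repeat.

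**Figure D5:**
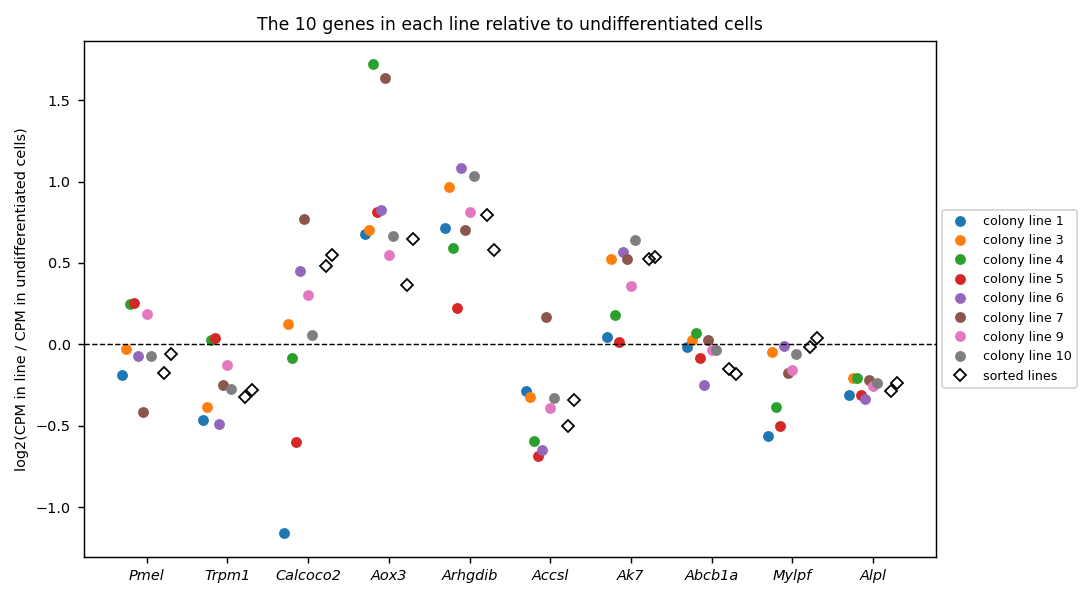
Log2 ratio of CPM in each line to undifferentiated cells for the 10 genes, with coloured points for the 8 colony lines and open diamonds for the 2 sorted lines. Most points lie within 1 log2 unit of 0. Aox3 is above 0 in all lines and highest in lines 4 and 7, and Calcoco2 spreads from 34.1 CPM in line 1 to 130 CPM in line 7.

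The tissues these genes are best known from were checked by their own markers. Of the pigment genes, Tyr, Tyrp1 and Dct, the enzymes of melanin synthesis, had no read in any line, and the 2 highest of that list in lines were Kit, a receptor that ES cells share, at 63.0 to 115 CPM and Mitf at 10.2 to 17.2 CPM. Of the fast muscle list, the regulators Myod1 and Myog stayed at or below 0.148 CPM in lines, and the highest were Actn3 at 2.96 to 9.09 CPM and Acta1 at 0.422 to 8.58 CPM. Of the blood and endothelium list, Ptprc had no read in lines and Cdh5 at most 1.13 CPM, while Laptm5 stood at 47.9 to 110 CPM and Pecam1, also a surface protein of ES cells, at 48.0 to 86.5 CPM. Laptm5, a lysosomal membrane protein, was at 19.5 ± 3.83 CPM in AICAR GFP-positive cells (SD, n = 3). Pecam1 was at 89.9 ± 14.7 CPM there and 88.8 CPM in undifferentiated cells.

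Of the cilia list, Foxj1, the regulator of motile cilia, stayed at or below 0.991 CPM in lines, and Hydin and Tekt1 led with 21.1 to 38.5 and 4.14 to 10.2 CPM. Hydin stood at 31.5 ± 6.33 CPM in AICAR GFP-positive cells and Tekt1, a tektin of cilia and sperm tails, at 0.323 ± 0.146 CPM there, against 8.81 CPM in undifferentiated cells. Of the osteoblast list, Runx2 and Sp7 stayed at or below 0.423 CPM in lines and Spp1, a secreted protein, stood at 288 to 505 CPM. Col1a1, on both the osteoblast and the mesenchyme list, reached 73.1 CPM in a line, and Vim, the other leader of the mesenchyme list, 624 CPM. Of the hepatocyte list, Alb stayed at or below 0.136 CPM, and Ahsg and Cps1 reached 4.33 and 3.54 CPM in a line. The endoderm list was led in lines by Hnf4a and Sox17, at most 5.50 and 4.53 CPM. Tyr, Myod1, Ptprc, Foxj1, Sp7 and Alb were thus at or near 0 in the lines. Other members of these lists were not, among them Mitf, Kit, Laptm5, Pecam1, Hydin and Spp1. The genes near 0 were named after their values were seen. At day 15, where Arhgdib was also high, Myog stood at 19.1 CPM and Runx2 at 25.4 CPM. Of the blood and endothelium genes named above, Ptprc stood there at 0.908, Laptm5 at 4.28, Pecam1 at 7.13 and Cdh5 at 60.4 CPM. The part of such cells in the Arhgdib level was not tested. Each list and the rule for naming its genes were chosen with earlier results known.

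Over the 9 group means of log2(CPM + 1), the 45 pairs among the 10 genes had Pearson correlations of 0.292 to 0.977 with a median of 0.896, which describes how the set was chosen. Arhgdib was least like the average profile (0.689) and Ak7 most like it (0.991). Of 11191 other genes with at least 10 CPM in a group, the 10 most like the average profile were Pgc (0.992), Dnase2a, Gpr4, Pdha1, Tle6, Cdx1, Crxos1, Mks1, Aldh1b1 and Atg14 (0.978). Pgc, a pepsinogen, stood at 0.996 CPM in AICAR GFP-positive cells, 13.8 CPM in sorted and 14.5 CPM in colony lines and 16.0 CPM in undifferentiated cells. Cdx1, a homeobox gene of gut and embryo patterning, stood at 0.593 CPM in AICAR GFP-positive cells, against 26.2 CPM in colony lines and 43.0 CPM in undifferentiated cells. A high correlation did not mean a like size of change: Pdha1, a subunit of pyruvate dehydrogenase, stood at 94.4 CPM in AICAR GFP-positive cells, against 171 CPM in undifferentiated cells. The single gene most like each member was Pgc for Pmel and for Accsl, Cdx1 for Trpm1, Dnase2a for Calcoco2, C030039L03Rik for Aox3, Rmdn2 for Arhgdib, Rabep2 for Ak7, D630045M09Rik for Abcb1a, Tada3 for Mylpf and Nfatc2ip for Alpl. The points share libraries and normalisation, and 3 of the 9 were in LIF+2i.

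The 10 genes lie on 9 chromosomes, with Trpm1 and Mylpf sharing chromosome 7. Of 23 neighbouring or overlapping genes found in the tables, 12 had at least 10 CPM in undifferentiated cells. Their level in AICAR GFP-positive cells had a median of 89.2% of the undifferentiated level (30.3% to 263%), and only Abcb1b, beside Abcb1a on chromosome 5, was under 50%. Abcb1b stood at 19.3 to 26.5 CPM in AICAR GFP-positive cells, 65.1 to 88.6 CPM in lines and 75.8 CPM in undifferentiated cells. Unlike Abcb1a it was still at 72.8 CPM at day 2. Genes that overlap a member are Rab5b for Pmel, Ttll6 for Calcoco2, Rundc3b for Abcb1a and Septin1 for Mylpf. Their levels in AICAR GFP-positive cells were 111%, 79.9%, 80.5% and 52.9% of the undifferentiated level. Whether the counting used the strand of the reads is not given in the sources used here, so reads from such overlaps cannot be assigned with certainty. Of the 50-base stretches of a transcript, 10.2% of Calcoco2, 3.67% of Arhgdib and 2.69% of Pmel also occur in transcripts of other genes, and none of Trpm1, Aox3, Accsl, Ak7, Mylpf or Alpl.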

How the data were processed

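Stranded mRNA libraries were sequenced, per the labels' protocols. Reads were processed with bcl2fastq, CASAVA 1.8.2, Trimmomatic 0.3.3, TopHat2 2.0.14 and Bowtie2 2.2.5 on mm9, per the submitters' processing notes. Per the file headers, rpkmforgenes on a RefSeq gene table gave the deposited counts, which take reads with a unique position and leave out 3' untranslated regions. The deposited RPKM values (reads per exon length and library size) were made by the authors in the same run, per the file headers.

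CPM were computed from the counts with the total reads in genes, over 5771671 to 14233421 reads a library, so genes near 1 CPM rest on few reads and counting limits their precision. Tests used edgeR 4.0.16 in R 4.3.3 (quasi-likelihood, TMM scaling, filterByExpr with min.count 10 and min.total.count 15, Benjamini-Hochberg adjusted p under 0.05) on the compared libraries only. DESeq2 1.42.0 was an alternative. The SE of a log2 fold change was taken from the fold change and its F statistic. Where a side has 1 library, it is assumed to vary like the other group. The p-values reflect no more than the spread among these samples, which may be technical. Comparisons of single libraries call more than 2-fold among genes with 100 reads or more and have no p. Counting intervals are exact at 95%, a count of 0 is given a floor of 3 reads per library, and intervals and floors cover counting error only. The scripts were tested on simulated data.

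The 10 genes and the lists were chosen with earlier results of these data known. Named genes are the 10, relatives by family or role that reach 10 CPM, the 2 members of a cell type list highest in a line, and genes of most similar profile. Defining markers near 0, naive genes under 50% and adjoining genes were named after their values were seen. Groups follow the titles, which the labels' sorting field contradicts for a day-2 library and for the AICAR fractions. Gene neighbours and promoter windows come from RefSeq GRCm38.p6, and shared stretches of 50 bases from GENCODE vM21 transcripts. Proteins were not used here, and 1 family relative is not reported here. Alternatives were other scaling, no filter, DESeq2, 1 fit over all libraries, leaving out a replicate, TMM-scaled CPM and RPKM, and, chosen after seeing the data, values within the first sequencing project.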

Additional observations from a re-analysis of the deposited data

Results flagged for a closer look

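Accsl stood at 47.3 CPM in colony line 7, far above the other 7 colony lines, which lay between 26.2 and 34.5 CPM. The gap to the next line was 0.607 of the range of the 8 lines. Undifferentiated cells had 42.1 CPM. The 10 genes were each checked for such a gap over the 8 colony lines, and chance gives a flag in about 1 of 20 groups.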

How the results depend on the processing

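For colony lines against the undifferentiated library the count of all genes called was 4, with 2 under DESeq2 size factors, 387 under DESeq2's own test, 1 in a fit over all libraries and 0 to 118 with a colony line left out (118 without line 9). None of the 10 genes was called under any of these. For colony against sorted lines 0 genes were called under every alternative run. For AICAR GFP-positive cells against day 15, 6883 genes were called, and 2863 to 9413 with a replicate left out (2863 without replicate 2). Of the 10 genes, 2 were higher. This count was 1 under DESeq2 size factors, without the filter and under DESeq2's test, 3 in the fit over all libraries (Alpl, Abcb1a and Trpm1), and 1 to 3 with a replicate left out. Of the 10, 1 was lower, with 3 in the fit over all libraries (Arhgdib, Pmel and Aox3) and 1 to 2 with a replicate left out. For AICAR GFP-positive against GFP-negative cells 0 genes were called, with 2 without the filter, 1204 under DESeq2's test, 3548 in the fit over all libraries and 0 to 3953 with a replicate left out (3953 without replicate 3). Of the 10 genes, 0 were higher, with 2 under DESeq2's test, 5 in the fit over all libraries and 0 to 3 with a replicate left out. The shares of tested genes called in the alternative runs were not computed, so their counts among the 10 genes are given without a reading. The causes of these differences were not tested. All 10 genes stayed below undifferentiated cells and all lines in every GFP-positive library under TMM-scaled CPM and RPKM. Of the single-gene values under the alternatives, 386 kept their side of the threshold or moved by less than their error, 13 newly passed, 5 no longer passed (all Abcb1a against day 15) and 2 moved by more than their error, namely Alpl in AICAR GFP-positive over undifferentiated cells, with a log2 ratio of -2.44 under TMM-scaled CPM, and Arhgdib against day 15 in the first sequencing project. No paired analysis was possible because 3 of the 4 comparisons have a single library on one side and the lines share a number without a shared source in the labels. Depth limits Aox3, Arhgdib, Pmel, Accsl, Calcoco2 and Ak7 in AICAR GFP-positive cells, where they rest on 0 to 35 reads a library.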
